A study of Rattus norvegicus with 24 samples.

Results

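The antioxidant enzymes examined here were 5 genes of the 23098 Ensembl gene IDs in the deposited count table: Hmox1 (ENSRNOG00000014117), Nqo1 (ENSRNOG00000012772), Sod1 (ENSRNOG00000002115), Sod2 (ENSRNOG00000019048) and Cat (ENSRNOG00000008364). They were chosen by ID, and each symbol came with that choice, since the table itself holds no symbols. All 5 passed the filter on low counts, which left 15065 genes for testing. Rat hearts (male Wistar) were sampled at the free wall of the left ventricle, and total RNA depleted of ribosomal RNA was sequenced. The libraries form 4 groups of 6: spinal cord injury (SCI) by complete transection high in the thoracic cord, with the heart collected 1 day, 3 days or 12 weeks after surgery, and sham surgery, in which the dura was opened at that level without cord injury and the heart was collected 7 days after surgery. No transgene or drug is named for any group. The sham group is not matched in time to any SCI group, so that injury and time since surgery cannot be fully told apart.

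These enzymes remove or limit reactive oxygen species. The superoxide dismutases turn superoxide into hydrogen peroxide, Sod1 mainly in the cytosol with copper and zinc and Sod2 in the mitochondrial matrix with manganese, and catalase (Cat), a peroxisomal enzyme, breaks hydrogen peroxide down to water and oxygen. Heme oxygenase 1 (Hmox1) splits heme into biliverdin, iron and carbon monoxide, and NAD(P)H quinone dehydrogenase 1 (Nqo1) reduces quinones without forming semiquinone radicals. Hmox1 and Nqo1 are well known as inducible genes, raised by the stress-sensing transcription factor Nrf2, while the heart, rich in mitochondria, holds the dismutases and catalase as standing defences. Hmox1 is also strongly expressed by macrophages that take up heme, in addition to muscle and vessel cells.

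Depth ranged from 15002476 to 70340174 counts per library. The libraries of the 1 day group held 41326217 to 62308617 counts, those at 3 days 16756399 to 48966088, those at 12 weeks 15002476 to 44709028 and those of sham 27097306 to 70340174. The mean correlation of a library with the others of its group, over log2 CPM of the tested genes, was 0.968 to 0.989, and the lowest values were those of 12 week replicate 3 (0.968) and 3 day replicate 5 (0.971). In the labels, libraries of the 3 day and sham groups carry numbers between 57 and 68, and those at 1 day and 12 weeks carry numbers between 77 and 88. The comparisons of 3 days with sham and of 12 weeks with 1 day therefore lie within 1 run of numbers. In the other comparisons the run and the group cannot be told apart. No table pairs the other IDs with symbols, so the labelled tissue could not be checked against its defining markers, and leukocyte markers were not analysed here. In whole tissue, a change in the number of cells of a type and a change in RNA per cell cannot be told apart.

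Hmox1 and Nqo1 differed between groups and followed different courses, while no call was made for Sod1, Sod2 or Cat in any of the 6 comparisons. Hmox1 exceeded sham at 1 day and at 12 weeks, where it was highest. Nqo1 exceeded sham at 1 day, and its 12 week level was below its 1 day level. Each of these calls over sham crosses the runs of library numbers, so that run and group cannot be told apart there. At 3 days, within 1 run with sham, neither gene was called in the fit of all libraries. Hmox1 narrowly missed the threshold there (edgeR adjusted p = 0.0531), with all 6 libraries above the sham range. In a fit of those 2 groups alone its edgeR adjusted p was 0.00153. Over 34 alternative settings, Hmox1 was called at 3 days in 9 and Nqo1 in 2. A gene is called here when its adjusted p is under 0.05 in edgeR's quasi-likelihood test, with Benjamini-Hochberg adjustment across the 15065 tested genes. Levels are CPM, counts scaled by the library's total after TMM adjustment. CPM is not divided by transcript length, so that levels are compared between groups and not between genes.

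At 1 day 2 of the 5 genes were called, both higher than sham, where 24% of all tested genes were called, 11.9% higher and 12.1% lower. The median log2 fold change of the 5 was -0.039, against 0.0005 over all tested genes. At 3 days none was called by edgeR or by limma-voom and 1 (Hmox1) by DESeq2, while 2 (Hmox1 and Nqo1) had an unadjusted edgeR p under 0.05. The background there was 17.5% of all genes called, 8.88% higher and 8.59% lower, with medians of 0.0062 for the 5 and 0.0076 for all. At 12 weeks 1 of the 5, Hmox1, was called higher, where 22.1% of all genes were called, 11.3% higher and 10.9% lower, with medians of 0.028 for the 5 and 0.0074 for all.

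Between the SCI times, 2 of the 5 were called at 12 weeks against 1 day, Hmox1 higher and Nqo1 lower, where 33.9% of all genes were called, 17.8% higher and 16.1% lower. At 12 weeks against 3 days 1 of the 5 was called, Hmox1, where 31.3% of all genes were called, 16% higher and 15.3% lower. At 3 days against 1 day no member was called by edgeR, DESeq2 or limma-voom, and none had an unadjusted edgeR p under 0.05. There 2.74% of all genes were called, 1.23% higher (186) and 1.51% lower (227), or 88 and 165 genes with scaling by library totals only. No member had separate ranges between SCI times, as 13.4% of all genes had at 12 weeks against 1 day, 10.1% at 12 weeks against 3 days and 2.04% at 3 days against 1 day.

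**Figure D1:**
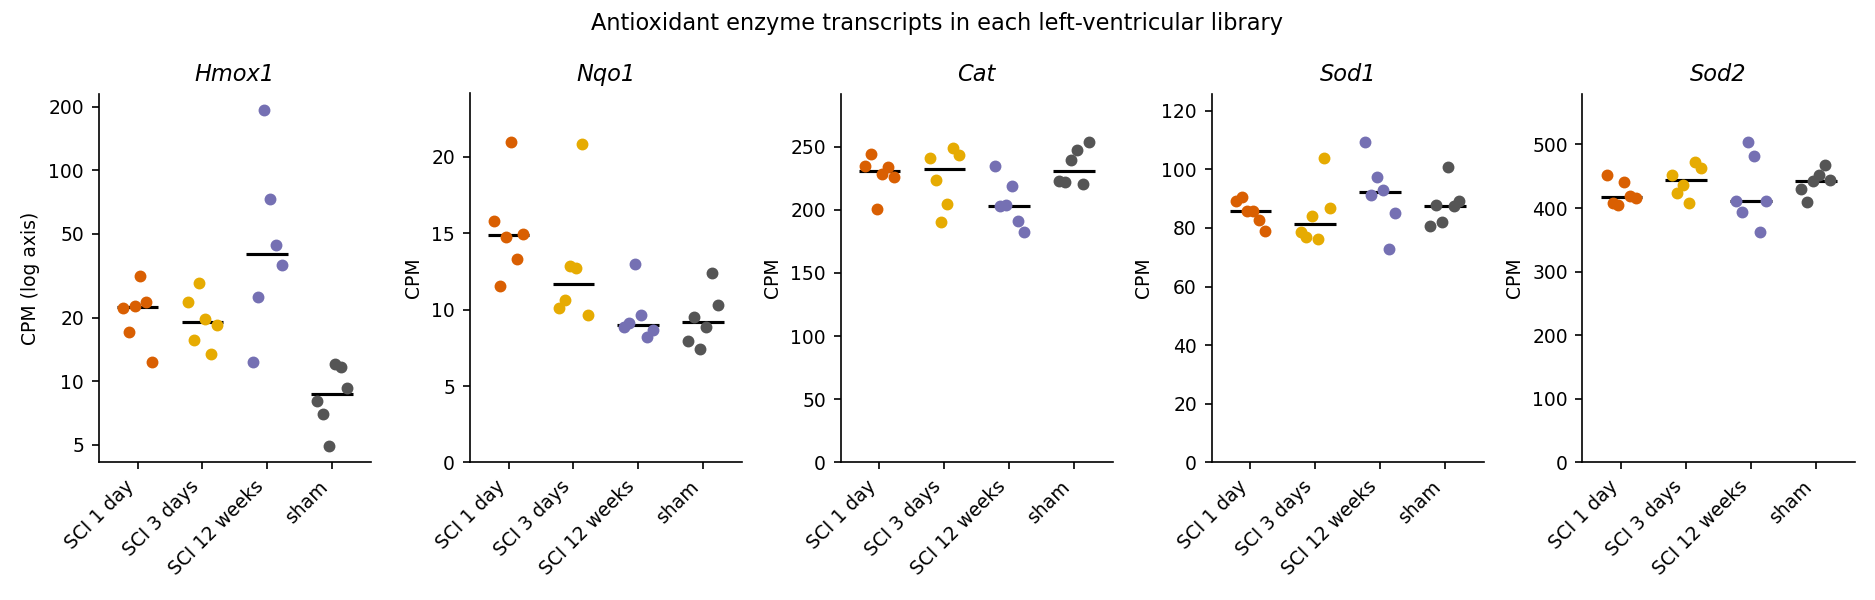
CPM of each gene in each library, by group (6 libraries per group); each point is 1 library and each bar the group median. The Hmox1 axis is logarithmic, and the other axes are linear from 0. All 18 SCI libraries lie above the highest sham library for Hmox1 (12.1 CPM), while the groups of Sod1, Sod2 and Cat overlap. For Cat, 5 of 6 libraries at 12 weeks lie below the lowest sham library.

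Hmox1, the heme-degrading enzyme, had the largest log2 fold change of the 5 genes over sham at each of the 3 times. Its level was 12.3, 17.2, 22.2, 22.8, 23.7 and 31.5 CPM in the 1 day libraries, against 4.96, 7.04, 8.03, 9.30, 11.6 and 12.1 CPM in sham. Every 1 day library lay above every sham library, a separation found in 14.8% of the tested genes, although the lowest of them exceeded the highest sham library only slightly. The mean was 21.6 ± 6.47 CPM at 1 day and 8.84 ± 2.74 CPM in sham (SD, n = 6 each), a log2 fold change of 1.30 (SE 0.424, 95% interval 0.43 to 2.17, edgeR adjusted p = 0.0268). This is a 2.46-fold rise, at rank 173 of the tested genes by log2 fold change. The call was lost without sham replicate 2 (1.25, edgeR adjusted p = 0.0553), without sham replicate 3 (1.17, adjusted p = 0.0623) and without 1 day replicate 4 (1.16, adjusted p = 0.062). Without 1 of the other 21 libraries it was kept, and in all it was called in 31 of 34 alternatives. A fit of the 1 day and sham libraries alone gave 1.31 (edgeR adjusted p = 0.000529). In this comparison the run of library numbers and the group cannot be told apart.

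At 3 days the Hmox1 level was 13.5, 15.7, 18.5, 19.6, 23.8 and 29.3 CPM, against the same sham values of 4.96 to 12.1 CPM. Again all 6 SCI libraries lay above all sham libraries, as ranges did not overlap in 8.93% of the tested genes. The mean of 20.1 ± 5.73 CPM at 3 days, against 8.84 ± 2.74 CPM in sham (SD, n = 6 each), gave a log2 fold change of 1.20 (SE 0.427, 95% interval 0.32 to 2.08), but its edgeR adjusted p of 0.0531 missed the threshold. The gene was called under 9 of 34 alternative settings, with adjusted p-values of 0.000209 to 0.108 over all of them. These included a fit of the 3 day and sham libraries alone (1.21, adjusted p = 0.00153), which are in 1 run of library numbers, and DESeq2 (1.19, adjusted p = 0.0416), and the fits without 12 week replicate 1, 2 or 3 (each 1.20, edgeR adjusted p = 0.0256, 0.0439 and 0.00658). The last 3 leave every 3 day and sham library in place, while the filter, the scaling factors and the fit that the groups share were redone. Which of these moved the call was not tested.

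At 12 weeks the Hmox1 libraries spread widely. They held 12.4 CPM in replicate 1, 25.1 in replicate 2, 192 in replicate 3, 73.3 in replicate 4, 44.2 in replicate 5 and 35.8 in replicate 6, against 4.96 to 12.1 CPM in sham. All 6 lay above the sham range, replicate 1 only just, and replicate 3 lay far above the rest. Ranges did not overlap in 9.6% of the tested genes in that comparison. The mean was 63.8 ± 66.2 CPM at 12 weeks and 8.84 ± 2.74 CPM in sham (SD, n = 6 each), and the medians were 40.0 and 8.66 CPM. The log2 fold change was 2.87 (SE 0.441, 95% interval 1.96 to 3.78, edgeR adjusted p = 7.06e-05), a 7.30-fold rise, which placed Hmox1 at rank 16 of the 15065 tested genes by log2 fold change. Without 12 week replicate 3 the rise was 4.38-fold (log2 fold change 2.13, edgeR adjusted p = 5.64e-05). Over all alternatives the log2 fold change lay between 1.98 and 3.08, called in 34 of 34. The SE, interval and p-value with all libraries rest on a spread shared by the groups, while Hmox1 varied more at 12 weeks than elsewhere. A fit of the 12 week and sham libraries alone gave 2.87 (edgeR adjusted p = 0.00235). Replicate 3 was also the library least like its group, and replicate 1, the lowest, was the shallowest of the 24 with 196 Hmox1 counts. With every library thinned to the total of that shallowest one, the log2 fold change was 2.97 (edgeR adjusted p = 6.65e-05). Here the run of library numbers and the group cannot be told apart.

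Between the SCI times, Hmox1 was higher at 12 weeks than at 1 day, with means of 63.8 and 21.6 CPM and a log2 fold change of 1.57 (SE 0.415, edgeR adjusted p = 0.00516). The 12 week and 1 day libraries share 1 run of library numbers. It was also higher at 12 weeks than at 3 days, with means of 63.8 and 20.1 CPM and a log2 fold change of 1.67 (SE 0.419, edgeR adjusted p = 0.00381). In each of these comparisons 4 of 6 libraries at 12 weeks lay above the highest of the earlier time. Both values rested in part on 12 week replicate 3: without it they were 0.83 (edgeR adjusted p = 0.0408) and 0.93 (adjusted p = 0.0252). In fits of the 2 groups alone they were 1.57 (edgeR adjusted p = 0.0312) and 1.67 (adjusted p = 0.0293). With surrogate variables in the model, which stand for unexplained variation shared by many genes, neither was called, at 0.45 (edgeR adjusted p = 0.201) and 0.62 (adjusted p = 0.0967). Levels at 3 days and 1 day were not told apart, at 20.1 ± 5.73 and 21.6 ± 6.47 CPM (SD, n = 6 each), a log2 fold change of -0.10 with a 95% interval of -0.95 to 0.75. The order of the means was thus 12 weeks, 1 day, 3 days and sham, in which 1 day and 3 days did not differ beyond their spread and 3 days missed the threshold against sham.

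**Figure D2:**
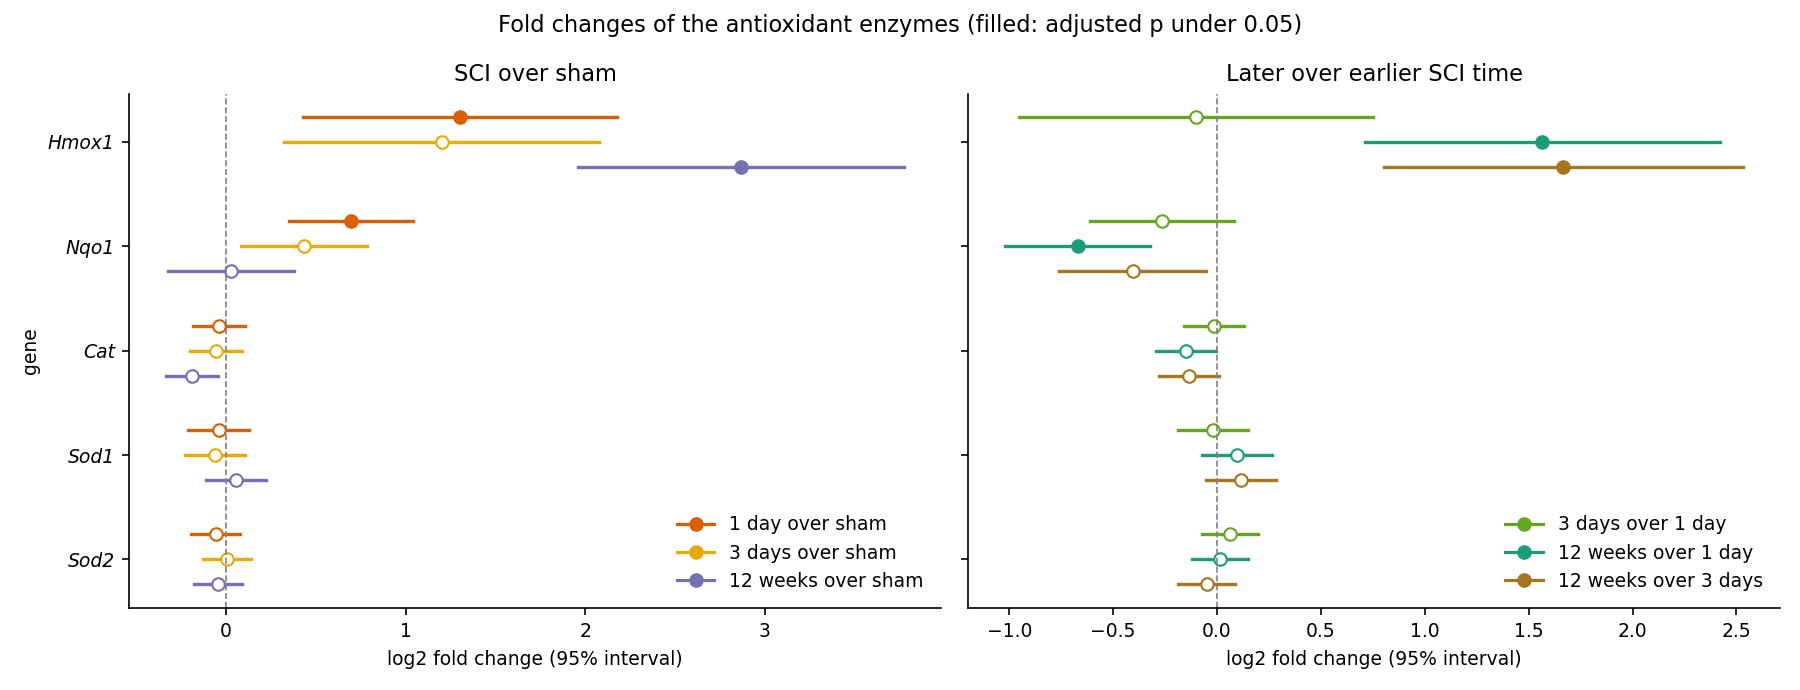
Log2 fold changes of the 5 genes with their 95% intervals, SCI over sham on the left and later over earlier SCI time on the right; filled points are called at an adjusted p under 0.05. Hmox1 is called at 1 day (1.30) and 12 weeks (2.87) and Nqo1 at 1 day (0.70) over sham. The intervals of Sod1, Sod2 and Cat are narrow, and those of Sod1 and Sod2 include 0. For Cat at 12 weeks they lie below 0 over sham (-0.33 to -0.044) and over 1 day (-0.29 to -0.0045), without a call.

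Nqo1, the quinone reductase, was higher than sham at 1 day. Its level was 11.5, 13.3, 14.8, 14.9, 15.8 and 21.0 CPM in the 1 day libraries, against 7.45, 7.97, 8.87, 9.54, 10.3 and 12.4 CPM in sham. At 1 day, 5 of 6 libraries lay above the highest sham library and all 6 above the sham mean, so that the groups overlapped in 1 library of each. The mean was 15.2 ± 3.20 CPM at 1 day and 9.42 ± 1.78 CPM in sham (SD, n = 6 each), a log2 fold change of 0.70 (SE 0.168, 95% interval 0.35 to 1.04, edgeR adjusted p = 0.00377), or 1.62-fold. It was called in 34 of 34 alternatives. In this comparison too the run of library numbers and the group cannot be told apart. The 1 day replicate with the highest Nqo1 level, replicate 4, was also the highest of its group for Hmox1.

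At 3 days the Nqo1 level was 9.67, 10.1, 10.6, 12.7, 12.9 and 20.9 CPM, against 7.45 to 12.4 CPM in sham. All 6 libraries lay above the sham mean but only 3 above the highest sham library, and replicate 5 stood apart at the top. The mean of 12.8 ± 4.17 CPM at 3 days, against 9.42 ± 1.78 CPM in sham (SD, n = 6 each), gave a log2 fold change of 0.43 (SE 0.17, 95% interval 0.083 to 0.78) that was not called (edgeR adjusted p = 0.0806). Without 3 day replicate 5, a shallow library of 16756399 counts, the value was 0.25 (edgeR adjusted p = 0.261). Without sham replicate 5 it was 0.53 and called (edgeR adjusted p = 0.041), as it was with surrogate variables (0.39, adjusted p = 0.0293).

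At 12 weeks Nqo1 stood at 8.18, 8.65, 8.84, 9.14, 9.62 and 13.0 CPM, against 7.45 to 12.4 CPM in sham, and the groups overlapped almost wholly. The mean was 9.57 ± 1.75 CPM at 12 weeks and 9.42 ± 1.78 CPM in sham (SD, n = 6 each), a log2 fold change of 0.028 with a 95% interval of -0.32 to 0.38 (edgeR adjusted p = 0.931). The interval leaves room for a change of up to 1.30-fold. Nqo1 was lower at 12 weeks than at 1 day, with means of 9.57 and 15.2 CPM and a log2 fold change of -0.67 (SE 0.169, edgeR adjusted p = 0.00364). In that comparison, within 1 run of library numbers, 5 of the 6 libraries at 12 weeks lay below the lowest 1 day library, and the call held in 34 of 34 alternatives. Relative to 3 days the log2 fold change was -0.41 (SE 0.171, edgeR adjusted p = 0.0732), not called. Without 3 day replicate 5 it was -0.23 (edgeR adjusted p = 0.26). It was called under 4 of 34 alternatives, among them without 3 day replicate 6 (-0.48, edgeR adjusted p = 0.0465) and without 12 week replicate 3 (-0.51, adjusted p = 0.0276). The comparison of 3 days with 1 day gave -0.26 (95% interval -0.61 to 0.082, edgeR adjusted p = 0.445). That value was -0.15 without 1 day replicate 4 (edgeR adjusted p = 0.719) and -0.44 without 3 day replicate 5 (adjusted p = 0.0839), and it was called without both 3 day replicate 5 and 12 week replicate 3 (-0.45, adjusted p = 0.0414). The order of the means was 1 day, 3 days, 12 weeks and sham, in which no neighbours were called apart.

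**Figure D3:**
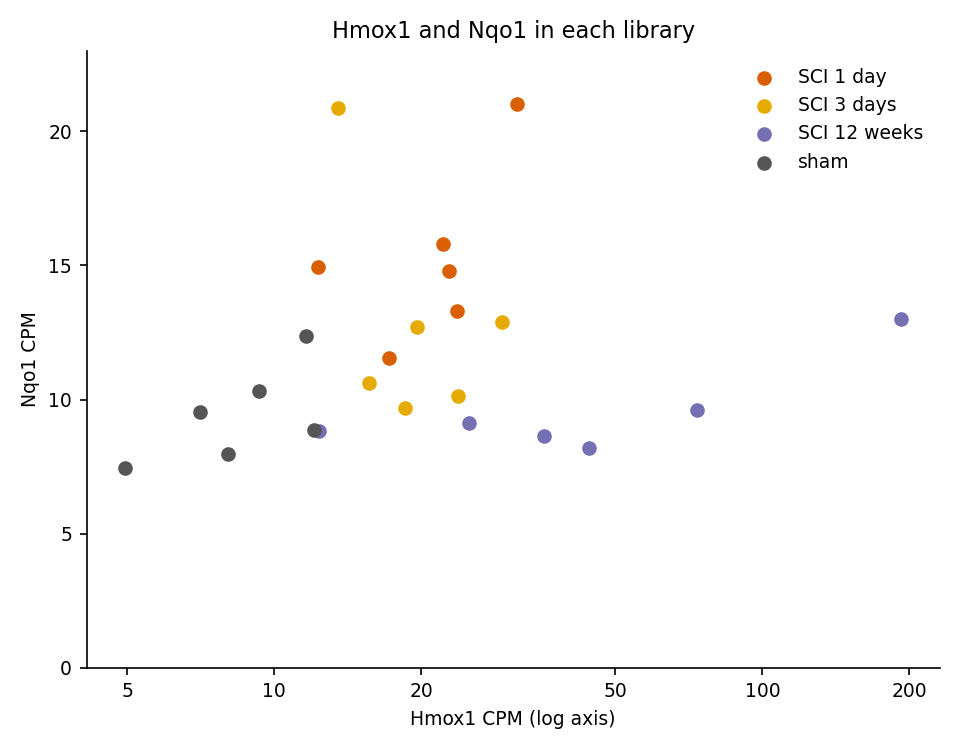
Nqo1 against Hmox1 CPM in each of the 24 libraries, coloured by group, with Hmox1 on a logarithmic axis and Nqo1 on a linear one. In all, 5 of the 12 week libraries lie at 25.1 to 192 CPM of Hmox1, 4 of them with under 10 CPM of Nqo1. Among these 5, replicate 3 has 13.0 CPM of Nqo1, within the 1 day range. The remaining 12 week library, replicate 1, lies at 12.4 CPM of Hmox1 and 8.84 CPM of Nqo1. The 1 day libraries hold 11.5 to 21.0 CPM of Nqo1 at 12.3 to 31.5 CPM of Hmox1.

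Set side by side, Hmox1 and Nqo1 both exceeded sham at 1 day, and at 12 weeks they stood in opposite directions relative to 1 day, Hmox1 higher and Nqo1 lower. The Hmox1 value in that contrast was not called with surrogate variables and was 0.83 in place of 1.57 without 12 week replicate 3, while the Nqo1 value was called under each alternative. The comparisons with sham share the same 6 sham libraries. Over the 24 libraries the Pearson correlation of their log2 CPM was 0.20, which placed Nqo1 at rank 4227 of the 15064 other tested genes by likeness to Hmox1. The 3 genes most like Hmox1 had r of 0.89, 0.86 and 0.86 with it, and those most like Nqo1 had r of 0.82, 0.81 and 0.79. These genes carry no symbols in the sources used here and are not named. The libraries share their groups and their scaling, so that these values describe this set of libraries only.

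The promoter windows of Nqo1, which rose at 1 day, and of Sod2, which was not called, are shown because Nrf2 is known to act through antioxidant response elements, whose core was searched as TGACNNNGC on both strands. Windows reach from 250 bases before to 50 bases after the start of the gene, are taken from RefSeq on the build GRCr8, and were found for 4 of the 5 genes, all but Hmox1. Capitals mark matches to TGACNNNGC, to TATAAA (the TATA box) or to GGGCGG (a GC box), also on both strands, and no match overlaps another. The Nqo1 window is chr19:52220218-52220517 and the Sod2 window chr1:50050119-50050418, both on the minus strand and written 5′ to 3′ along the gene.
Nqo1: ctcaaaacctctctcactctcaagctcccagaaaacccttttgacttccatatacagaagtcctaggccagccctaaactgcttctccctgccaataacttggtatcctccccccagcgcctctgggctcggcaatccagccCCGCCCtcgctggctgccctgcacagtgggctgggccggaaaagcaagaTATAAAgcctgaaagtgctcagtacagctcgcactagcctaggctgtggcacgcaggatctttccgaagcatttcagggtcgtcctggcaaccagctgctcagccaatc
Sod2: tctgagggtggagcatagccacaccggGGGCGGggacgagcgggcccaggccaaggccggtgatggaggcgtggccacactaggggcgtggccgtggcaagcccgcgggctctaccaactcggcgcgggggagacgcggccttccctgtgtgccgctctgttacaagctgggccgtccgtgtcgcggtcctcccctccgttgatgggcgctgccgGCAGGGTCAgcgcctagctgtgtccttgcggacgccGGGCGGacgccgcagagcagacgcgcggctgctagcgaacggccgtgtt
The letters TGACNNNGC were matched in the Sod2 window, on the strand opposite to the gene and ending 27 bases before the start, and not in the windows of Nqo1, Sod1 or Cat. They occur in 12.1% of all 33469 windows of this length. TATAAA was matched in the windows of Nqo1 and Sod1, 54 and 23 bases before the start, and in 14.2% of all windows. GGGCGG was matched in those of Nqo1, Sod1 and Sod2, and in 33.1% of all windows. A match is a description of these letters and not of a bound site, and elements further from the start lie outside these windows.

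Sod1, the cytosolic dismutase, was measured with 1661 to 5759 counts per library. Its lowest, median and highest levels were 78.9, 85.8 and 90.4 CPM at 1 day, 76.4, 81.3 and 104 CPM at 3 days, 72.7, 92.2 and 109 CPM at 12 weeks, and 80.7, 87.6 and 101 CPM in sham. The 4 groups overlapped, and the highest libraries were 12 week replicate 1, 3 day replicate 5 and sham replicate 4. The log2 fold changes over sham were -0.041 at 1 day (95% interval -0.21 to 0.13, edgeR adjusted p = 0.757), -0.061 at 3 days (-0.23 to 0.11, adjusted p = 0.663) and 0.056 at 12 weeks (-0.11 to 0.22, adjusted p = 0.669). With surrogate variables the 3 day value was called lower (-0.13, edgeR adjusted p = 0.0477), which no other alternative did. The order of the means was 12 weeks (91.5 ± 12.3 CPM), sham (88.0 ± 7.13), 1 day (85.5 ± 4.24) and 3 days (84.4 ± 10.4, SD, n = 6 each), and no pair was called apart.

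Sod2, the mitochondrial dismutase, was measured with 6517 to 30655 counts per library and had the smallest spread of the 5 genes. The SD of its log2 CPM within groups was 0.109, which only 13.4% of the tested genes undercut. Its lowest, median and highest levels were 405, 417 and 453 CPM at 1 day, 409, 444 and 472 CPM at 3 days, 362, 411 and 504 CPM at 12 weeks, and 410, 443 and 467 CPM in sham. At 12 weeks the libraries spread to both sides of the sham range, 2 above it and 2 below it, and the highest, replicates 3 and 4, were also the highest for Hmox1. The means were 423 ± 19.0 CPM at 1 day, 443 ± 24.4 at 3 days, 427 ± 54.6 at 12 weeks and 441 ± 19.7 in sham (SD, n = 6 each). The log2 fold changes over sham were -0.057 at 1 day (95% interval -0.19 to 0.078, edgeR adjusted p = 0.564), 0.0062 at 3 days (-0.13 to 0.14, adjusted p = 0.963) and -0.044 at 12 weeks (-0.18 to 0.092, adjusted p = 0.679). None of the 34 alternatives called Sod2 in any comparison, and the intervals over sham reach no further than a 0.87-fold level on the low side and 1.10-fold on the high side.

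Cat, the peroxisomal catalase, was measured with 3711 to 15881 counts per library. Its lowest, median and highest levels were 201, 231 and 244 CPM at 1 day, 190, 232 and 249 CPM at 3 days, 183, 203 and 234 CPM at 12 weeks, and 220, 231 and 254 CPM in sham. At 12 weeks 5 of 6 libraries lay below the lowest sham library, and only replicate 1 lay within the sham range. The mean was 206 ± 18.6 CPM at 12 weeks and 234 ± 14.6 CPM in sham (SD, n = 6 each), a log2 fold change of -0.19 (SE 0.07, 95% interval -0.33 to -0.044) that missed the threshold (edgeR adjusted p = 0.0553). It was called under 6 of 34 alternatives, with adjusted p-values of 0.0237 to 0.133 over all of them: without 12 week replicate 1 (-0.23, edgeR adjusted p = 0.0237), without 3 day replicate 3 (-0.19, adjusted p = 0.0405), without 3 day replicate 5 (-0.19, adjusted p = 0.0463), with DESeq2 (-0.19, adjusted p = 0.045), with surrogate variables (-0.19, adjusted p = 0.0464) and with thinned libraries (-0.20, adjusted p = 0.0448). At 1 and 3 days the log2 fold changes over sham were -0.039 (95% interval -0.18 to 0.11) and -0.055 (-0.20 to 0.089), with edgeR adjusted p-values of 0.726 and 0.641. Relative to 1 day and to 3 days the 12 week values were -0.15 (edgeR adjusted p = 0.104) and -0.13 (adjusted p = 0.154). The first was called without 1 day replicate 3 (-0.19, adjusted p = 0.0493) and without 12 week replicate 1 (-0.19, adjusted p = 0.0362), and the second without 3 day replicate 3 (-0.18, adjusted p = 0.0457).

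**Figure D4:**
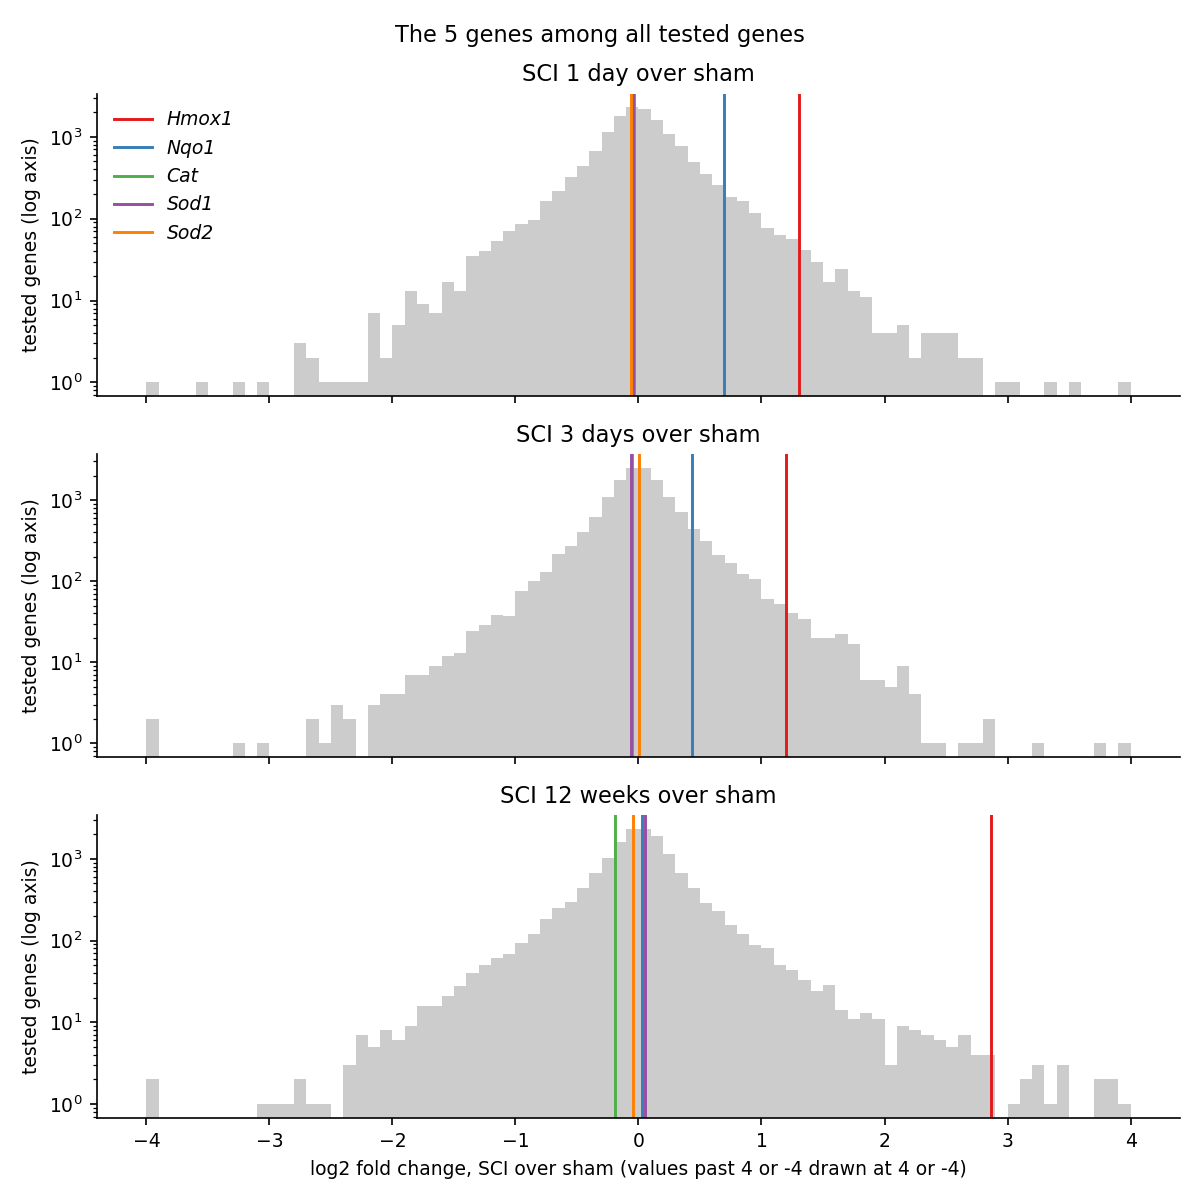
Log2 fold changes over sham of all 15065 tested genes (grey, number of genes per bin on a logarithmic axis) with the 5 genes as vertical lines, at 1 day, 3 days and 12 weeks from top to bottom. Hmox1 lies in the right tail at each time and farthest out at 12 weeks (2.87), and the lines of Sod1, Sod2 and Cat partly cover each other near 0.

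The spread within groups also differed between the genes, and so did their place by mean log2 CPM. Of the tested genes, 98.8% had a lower mean than Sod2, 97.1% than Cat, 90.1% than Sod1, 61.9% than Hmox1 and 49.6% than Nqo1. The spread was not compared with that of genes of like level. The SD of log2 CPM within groups was 0.78 for Hmox1, which exceeded that of 95.2% of the tested genes, 0.305 for Nqo1 (66.5%), 0.146 for Sod1 (29.6%), 0.121 for Cat (18.6%) and 0.109 for Sod2. For Hmox1 the coefficient of variation was 30.0% at 1 day, 28.5% at 3 days and 104% at 12 weeks, against 31.0% in sham. The highest library exceeded the lowest 15.5-fold at 12 weeks, against 2.44-fold in sham. Without 12 week replicate 3 the coefficient of variation at 12 weeks was 60.3% and the span 5.92-fold. From library to library the genes did not share 1 order: 3 day replicate 5 ranked 2nd of 24 for Nqo1, Cat and Sod1 but 16th for Hmox1, and 12 week replicate 3 ranked 1st for Hmox1 and Sod2 but 19th for Cat.

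**Figure D5:**
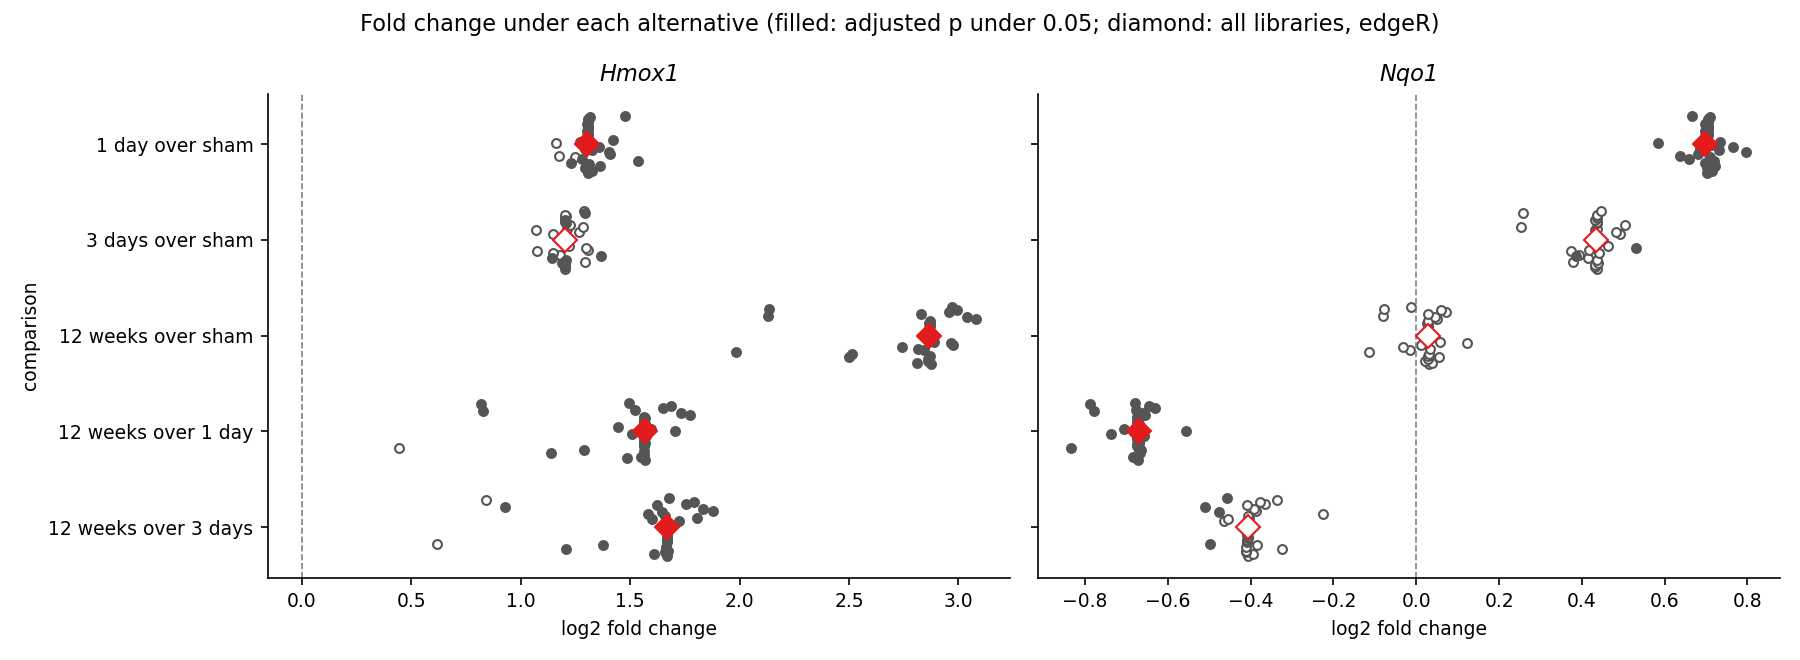
Log2 fold changes of Hmox1 and Nqo1 in 5 comparisons (rows) under each of 34 alternative settings (circles, filled where called) and in the edgeR fit of all libraries (red diamond, filled where called). Hmox1 at 12 weeks over sham is called throughout (1.98 to 3.08), while Hmox1 at 3 days over sham (1.07 to 1.37) falls on both sides of the threshold.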

How the data were processed

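Counts per Ensembl gene ID were deposited by the authors as 1 table over 24 libraries, labelled as protein-coding. Depth, CPM and shares of all genes refer to the genes it holds. FastQC 0.12.1, STAR 2.7.11a and featureCounts 2.0.6 with the build mRatBN7.2 are named, per the submitters' processing notes. Not given in the sources used here are the annotation release, the strand setting and the handling of multi-mapping reads, so overlapping genes may share reads. IDs on several lines (781, with identical counts) were used once.

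The tests were run on the counts with edgeR 4.0.16 in R 4.3.3 (filterByExpr by group, TMM factors, glmQLFit with 1 term per group over all 24 libraries, two-sided F tests). Standard errors and 95% intervals were derived from the F statistic. Steps were tested on simulated counts, drawn with the same spread for a gene in all groups, unlike Hmox1 at 12 weeks. Of 1.5-fold changes over sham, 65.7% were recovered at 1 day, 67.2% at 3 days and 55.2% at 12 weeks. Of 4-fold changes these shares were 98.5%, 100% and 95.5%. Alternatives were other scaling, no filter, DESeq2 1.42.0, limma-voom (limma 3.58.1), the 2 groups alone, the replicate number as a block, surrogate variables (sva 3.50.0), each library left out, and, chosen after seeing the data, the 2 far libraries left out together and libraries thinned to 15002476 counts.

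Even numbers made up 58.1 to 61.1% of counts between 1 and 200 in every library, so a count may not be 1 independent fragment. Library pairs of a group differed by a chi-square of at least 12.6 per degree of freedom, so none repeats another. No label says that each library is a separate rat, and p-values measure the spread between these samples. The members, lists and rules were chosen with earlier results of these data known. The rule named the 5 members always and other genes only if their IDs had symbols. The gene table (GRCr8) holds no Ensembl IDs, so a wider list of antioxidant genes and cell markers was not used here. The promoter letters TATAAA and GGGCGG were added with the members' values known.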

Additional observations from a re-analysis of the deposited data

Results flagged for a closer look

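In 3 of 20 sets of 6 libraries (5 genes in 4 groups) the highest CPM lay far from the others by a set limit. These were Hmox1 at 12 weeks, where replicate 3 held 192 CPM and the next library 73.3 CPM; Nqo1 at 12 weeks, where the same replicate 3 held 13.0 CPM and the next 9.62 CPM; and Nqo1 at 3 days, where replicate 5 held 20.9 CPM and the next 12.9 CPM. Chance passes the limit in about 1 of 20 such sets if values are normally distributed, which was not checked. On the log2 scale, Hmox1 replicate 3 at 12 weeks stood at 7.59, the next at 6.20 and the lowest at 3.64, so it stood out less. The limit was not applied on that scale. The far libraries were also the ones least correlated with their groups. The part of library quality or cell content in these values was not tested.

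Hmox1 and Nqo1 differed between SCI times by edgeR test. The same sham libraries serve each time, so each test equals the comparison of SCI times given above. Injury and time since surgery cannot be told apart in it. In the comparison of 12 weeks with 3 days, neither can run and group. For Hmox1 the 12 week level exceeded that at 1 day by 1.57 on the log2 scale (edgeR adjusted p = 0.00516). There 5 of 6 libraries at 12 weeks lay above the 1 day mean. It exceeded that at 3 days by 1.67 (edgeR adjusted p = 0.00381), with 5 of 6 above the 3 day mean. Both differences shrank without 12 week replicate 3, to 0.83 (edgeR adjusted p = 0.0408) and 0.93 (adjusted p = 0.0252). With surrogate variables neither was called (0.45, edgeR adjusted p = 0.201, and 0.62, adjusted p = 0.0967). Without the 2 far libraries the difference from 3 days was not called (0.84, adjusted p = 0.0526). Fits of the 2 groups alone gave edgeR adjusted p = 0.0312 and 0.0293 for the differences from 1 day and 3 days. For Nqo1 the 12 week level was lower than that at 1 day, with a difference of -0.67 (edgeR adjusted p = 0.00364, 6 of 6 libraries below the 1 day mean).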

How the results depend on the processing

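Of 1020 member values under an alternative (30 values, 34 alternatives each), 959 kept their direction and their side of the threshold, 6 lost a call, 26 gained one and 29 changed sign. None of those that changed sign was called in either fit. Of the values called with all libraries, Nqo1 at 1 day over sham, Nqo1 at 12 weeks over 1 day and Hmox1 at 12 weeks over sham were called in all 34. The cause of each change below was not tested.

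Hmox1 at 3 days over sham was called with library totals only (1.20), DESeq2 (1.19), the 2 groups alone (1.21), surrogate variables (1.37) and the 2 far libraries left out (1.29). Same-numbered libraries of different groups deviated together (r over 0.1, at most 0.15) in 4 of 36 pairs, and 2 of 24 libraries matched their own number best. No pairing by number was seen, but a set limit on r cannot exclude one. With the replicate block Hmox1 at 3 days was called (1.14, adjusted p = 0.0498), and no other member call changed. With surrogate variables Hmox1 at 12 weeks lost its call over 1 day (0.45) and 3 days (0.62). The same fit called Nqo1 (0.39) and Sod1 (-0.13) at 3 days and Cat (-0.19) at 12 weeks over sham, and Nqo1 (-0.50) at 12 weeks over 3 days. It turned the sign of Sod2 at 3 days (-0.0032), Nqo1 (-0.11) and Sod1 (-0.097) at 12 weeks over sham, and Sod1 (-0.018) and Sod2 (-0.064) at 12 weeks over 1 day. Without the 2 far libraries Hmox1 at 12 weeks over 3 days lost its call (0.84), Nqo1 at 3 days over 1 day was called (-0.45), and the signs of Sod2 at 3 days (-0.0091), Nqo1 at 12 weeks (-0.077) and Sod2 at 12 weeks over 1 day (-0.049) turned. Thinning called Cat at 12 weeks over sham (-0.20) and Nqo1 at 12 weeks over 3 days (-0.46), and turned Nqo1 at 12 weeks over sham (-0.012) and Sod2 at 12 weeks over 1 day (-0.0057). DESeq2 called Cat at 12 weeks (-0.19), and without the low-count filter Sod2 at 12 weeks over 1 day was -0.0015.

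Leaving out 1 library at a time kept Hmox1 at 12 weeks called, at 2.13 to 3.08 over sham, 0.83 to 1.77 over 1 day and 0.93 to 1.88 over 3 days. Nqo1 stayed called at 1 day over sham (0.58 to 0.80) and at 12 weeks over 1 day (-0.78 to -0.56), and at 3 days over 1 day it was not called (-0.44 to -0.15). Among values whose call or sign changed when 1 library was left out, ranges over sham were 1.16 to 1.42 (Hmox1) and -0.060 to 0.0016 (Sod1) at 1 day. At 3 days they were 1.07 to 1.31 (Hmox1), 0.25 to 0.53 (Nqo1) and -0.013 to 0.032 (Sod2), and at 12 weeks -0.080 to 0.12 (Nqo1), -0.23 to -0.15 (Cat) and -0.098 to 0.0010 (Sod2). For 3 days over 1 day they were -0.24 to 0.037 (Hmox1), -0.051 to 0.027 (Cat) and -0.087 to 0.0053 (Sod1), for 12 weeks over 1 day -0.19 to -0.12 (Cat) and -0.040 to 0.052 (Sod2), and for 12 weeks over 3 days -0.51 to -0.23 (Nqo1) and -0.18 to -0.10 (Cat).

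The number of all genes called stayed within 1.5 times in 5 comparisons. Between 3 days and 1 day it was 413 (186 higher, 227 lower), against 253 (88 higher, 165 lower) with library totals only, 817 with DESeq2, 259 with the 2 groups alone, 1017 with surrogate variables, 983 without the 2 far libraries, and 170 to 653 without 1 library. The lowest counts behind a member's level were 140 for Nqo1 and 196 for Hmox1, both in the shallowest library.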
